A study of Drosophila melanogaster with 23 samples.

Results

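A set of 131 probes, out of 32161 with values in the authors' table, was higher within 4 h of a temperature drop in cultured Drosophila cells and was still higher after 72 h. The members were chosen from these data. In the authors' log2 values, a probe had to be at least 0.7 above the mean of the arrays at 25 °C both after 4 h and after 72 h at 14 °C, its 72 h difference had to reach at least 0.5 of the larger of its 4 h and 12 h differences, and every 72 h array had to lie above all 6 arrays at 25 °C. The 4 h limit alone kept 255 probes, the 72 h limit left 143, the share left 138, and the requirement on single arrays left 133, of which 2 were left out by name. Therefore, all values at 4, 12 and 72 h against 25 °C below are descriptions without a test. The 24 h arrays played no part in the choice, although the 25 °C arrays they are compared with did.

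The cells were S2R+ cells, an adherent isolate of the Drosophila S2 line, which came from embryos and resembles blood cells (hemocytes). All cultures grew for 36 h at 25 °C after plating. For 3 arrays RNA was taken at this point, called 0 h, and for 3 others the cultures stayed warm until 12 h later. The rest were moved to 14 °C, where 4 h and 24 h in the cold gave 5 arrays each, 12 h gave 3 and 72 h gave 4. The 12 h control at 25 °C was designed to match the cell density reached after 72 h in the cold. All groups share the same line and plating, so that the results are limited to one cell line in culture. The hemocyte markers srp, ush and vkg had mean log2 levels of 11.14, 11.98 and 11.82 and were well above background on all 23 arrays, whereas probes of vas, brp, twi and Yp1, which mark germ line, neurons, muscle and fat body, had mean levels from 6.04 to 6.29 and were well above background on 0 to 5 arrays. Only 3 of the 14 hemocyte markers on the list and 4 of the 15 markers of other cell types had a probe with a gene name.

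Flies are ectotherms, which do not hold their body temperature constant when their surroundings change. A cell that cools must keep its signalling, membranes and cytoskeleton working while every enzyme slows down at its own rate. The named genes of the set belong to classes that are well known in fly development. Dad is an inhibitory Smad that dampens signalling by the BMP ligand Dpp, pirk dampens the Imd immune pathway, Pdk1 is the kinase that activates Akt downstream of the insulin receptor, rl is the fly ERK MAP kinase, and Kah and NK7.1 encode DNA-binding proteins of the zinc finger and homeobox type. unc-5 is a netrin receptor, mim and Svil act at the interface of membrane and actin, and spin is a lysosomal membrane transporter.

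Gene names could be given to 20 of the 131 probes, which represent 15 genes. The remaining 111 probes carry a transcript or clone identifier only and are described by counts and ranges. Names were available for 3959 of the probes on the array and came mostly from gene tables of the study, so the named genes are not a random draw from the set. In total the 131 probes had 114 distinct identifiers, and 15 of these were represented by more than 1 member probe. Such probes report on the same RNA and were not independent. Named probes were located on chromosome arms 2L (1 probe), 2R (8 probes), 3L (6 probes) and 3R (4 probes), and for CG40958 no arm was given.

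All levels below are log2 intensities that were newly normalized from the scanner files, without the removal of surrogate variables that had been applied to the authors' values. Of the 131 members, 114 met the same rule in these values as well. Among the 17 that did not, 16 had a 72 h array that was not above every array at 25 °C, and 1 had a 4 h difference under 0.7. The probes nearest to the limits in the authors' values had a 4 h difference of 0.702 inside and 0.697 outside, a 72 h difference of 0.70 inside and 0.697 outside, and a share of 0.517 inside and 0.473 outside. No member was at the lower end of detection in the cold: all 131 were well above background on all 17 arrays at 14 °C. At 25 °C, 123 were well above background on all 6 arrays and 1 on none.

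Levels at 25 °C were spread widely, from 6.13 to 14.46 with a median of 8.29, against a median of 6.34 over all probes. There were 27 members under 7, 74 from 7 to under 10, and 30 at 10 or more. The median member was 0.98 higher on the log2 scale at 4 h (1.97-fold), 1.32 at 12 h (2.49-fold), 1.30 at 24 h (2.46-fold) and 1.17 at 72 h (2.25-fold). The median of all probes stayed within 0.004 of the 25 °C level at each of these times. At 4 h, 59 members were at least 2-fold higher, compared to 102 at 12 h, 90 at 24 h and 86 at 72 h. The median member thus had 0.868 of its largest difference left at 72 h, a share that the rule kept from being small. Of the 4 arrays at 72 h, 3 had failed a quality limit in the scanner output.

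**Figure D1:**
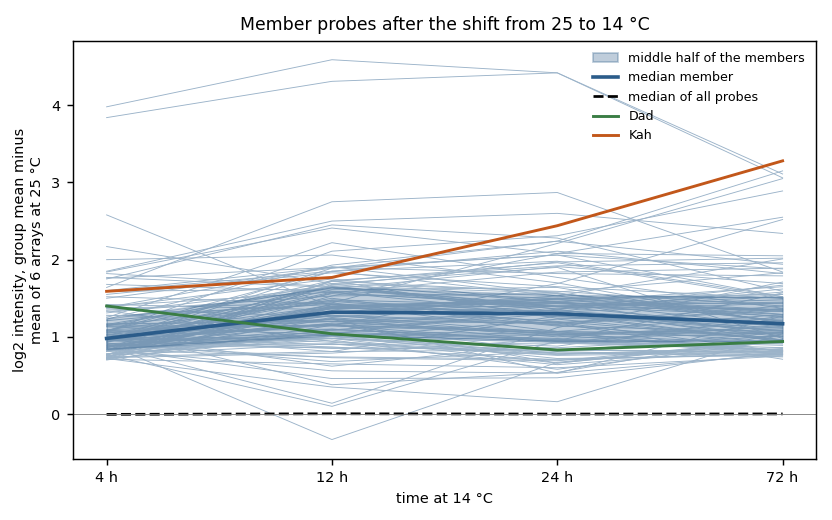
Difference of each of the 131 member probes from the mean of 6 arrays at 25 °C (vertical axis, log2 intensity) against time at 14 °C (horizontal axis, 4 times, not to scale); thin lines are probes, the thick blue line is the median member, the band their interquartile range and the dashed line the median of all probes. The median member was 0.98 higher at 4 h and 1.17 at 72 h, while Kah was at 3.28 at 72 h and Dad was highest at 4 h with 1.40.

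Within the set, the time of the highest mean differed. It was 4 h for 21 members, 12 h for 52, 24 h for 26 and 72 h for 32. For most members these means were close to each other: only 4, 6, 0 and 10 members, respectively, had a highest mean at least 0.3 above the next one. The counts moved when a technical grouping of the arrays was taken into account, as described below, to 27, 31, 30 and 43. Hence the time of the highest mean was not firm for most members.

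The largest difference belonged to a transcript without a gene name in the tables used here, FBtr0078160, which was represented by 2 member probes. The first of these had levels of 7.02, 6.71 and 6.79 at 0 h and 7.06, 6.88 and 7.12 in the 12 h control at 25 °C. After 4 h at 14 °C the levels were 11.17, 10.81, 11.07, 10.50 and 11.00, and after 12 h they were 11.50, 11.51 and 11.56. Thus each array in the cold was far above each array at 25 °C. The levels at 24 h were 11.35, 11.11, 11.58, 11.63 and 11.10, and those at 72 h were 9.36, 10.44, 10.06 and 10.09, below every earlier array in the cold. The differences from 25 °C were 3.98 (15.8-fold), 4.59 (24.1-fold), 4.42 (21.5-fold) and 3.06 (8.31-fold) at 4, 12, 24 and 72 h. The second probe gave nearly the same values, with 3.84, 4.31, 4.42 and 3.11. At 24 h the rise was 4.42 ± 0.153 (SE) for the first and 4.42 ± 0.078 for the second probe (limma, adjusted p = 3.46e-14 and 2.43e-19).

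An early extreme was the probe of FBtr0329929, another transcript without a gene name. Its levels at 4 h were 12.88, 13.04, 12.75, 13.11 and 12.83. All of these were above its levels at 12 h (11.61, 11.73 and 11.88) and at 24 h (11.85, 12.01, 11.52, 12.06 and 11.77). The 6 arrays at 25 °C lay between 10.11 and 10.64. The difference was 2.58 at 4 h (5.97-fold) and was lower later, with 1.39 at 12 h, 1.5 at 24 h and 1.51 at 72 h. No array of any time at 14 °C reached down to the 25 °C levels.

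Among the named genes, the DNA-binding proteins differed in height and course. Kah, a Snail-type zinc finger factor, had levels of 7.70, 6.97 and 7.29 at 0 h and 7.04, 6.63 and 6.97 in the 12 h control at 25 °C. After 4 h at 14 °C they were 8.92, 8.82, 9.00, 8.35 and 8.35, and after 12 h 9.03, 9.02 and 8.56. The 4 h and 12 h arrays overlapped, but both were clear of the arrays at 25 °C. Levels were 10.05, 9.52, 9.74, 8.87 and 9.50 at 24 h and 10.57, 10.46, 10.45 and 10.06 at 72 h. The lowest 72 h array was just above the highest 24 h array, and only 1 of the 24 h arrays was within the range of the 12 h arrays. Kah rose 5.42-fold by 24 h (log2 difference 2.44 ± 0.196, SE, n = 5 against 6, limma, adjusted p = 1.05e-08). Its differences at 4, 12 and 72 h were 1.59, 1.77 and 3.28, the latter corresponding to 9.74-fold. The step from 12 h to 24 h, 0.67 ± 0.236, missed the threshold (adjusted p = 0.36).

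NK7.1, a homeobox gene, showed a much smaller difference. At 25 °C its 6 arrays ranged from 7.67 to 8.96, the widest spread among the named members with a single member probe (SD 0.48). The 4 h arrays ranged from 9.02 to 9.43, all above the 25 °C arrays, and the 24 h arrays from 8.99 to 9.66. At 72 h, the levels were 8.80, 9.62, 9.64 and 8.95, of which 2 fell within the range at 25 °C. NK7.1 rose 1.65-fold by 24 h (0.72 ± 0.202, adjusted p = 0.0152). Without the fifth 24 h array it was 0.61 (adjusted p = 0.0537).

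The signalling genes fell into an early, a flat and a climbing course. Dad, the inhibitory Smad, had its highest levels at the first time. At 25 °C the levels of its first probe were 8.59, 8.25 and 8.87 at 0 h and 8.26, 7.90 and 8.61 after 12 h more. They were 9.84, 9.61, 9.89, 9.83 and 9.91 at 4 h, and thus above all other arrays of the time course. At 12 h they were 9.41, 9.47 and 9.49, at 24 h 9.37, 9.10, 9.28, 8.96 and 9.50, and at 72 h 9.16, 9.58, 9.55 and 9.12. No array at 14 °C fell within the range at 25 °C. The difference was 1.40 at 4 h (2.65-fold), 1.04 at 12 h, and 0.94 at 72 h. By 24 h Dad had risen by 0.83 ± 0.137 (1.78-fold, adjusted p = 0.000122). The second member probe of Dad gave 1.34, 0.94, 0.78 and 0.86 in the order of the times, and its rise at 24 h was also called (adjusted p = 0.000485).

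Pdk1, the Akt-activating kinase, had a flat course with the probe of the transcript FBtr0072465, whose group SDs were at most 0.13. Its levels were 9.60, 9.33 and 9.46 at 0 h and 9.45, 9.34 and 9.43 in the 12 h control at 25 °C. At 4 h they were 10.51, 10.39, 10.47, 10.28 and 10.33, and at 12 h 10.46, 10.53 and 10.38. At 24 h they were 10.46, 10.34, 10.56, 10.23 and 10.35, and at 72 h 10.39, 10.39, 10.42 and 10.35. All groups at 14 °C overlapped with each other and none with 25 °C. The differences were 0.96, 1.02, 0.95 and 0.95, and the rise at 24 h had an SE of 0.059 (adjusted p = 3.2e-10). The other member probes of Pdk1 carried identifiers of other transcripts and rose by 1.27 ± 0.275 and 1.03 ± 0.177 at 24 h (adjusted p = 0.0019 and 0.000187). The first of them varied most between arrays. Its levels were 10.07, 10.85 and 10.06 at 0 h, 10.85, 11.21 and 10.00 in the 12 h control, 11.57, 12.16, 11.57, 11.71 and 10.69 at 4 h, and 11.68, 11.32 and 10.94 at 12 h. At 24 h they were 11.91, 12.15, 11.82, 11.86 and 11.17, and at 72 h 12.02, 11.05, 11.21 and 12.05, so that the cold groups overlapped with 25 °C. Neither of these probes met the rule in the scanner values.

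In contrast, rl, the ERK kinase, was lower at 4 h than later. Its levels were 10.54, 10.56 and 10.27 at 0 h and 10.57, 10.35 and 11.11 in the 12 h control, where the last array stood apart. At 4 h they were 11.32, 11.33, 11.29, 11.17 and 11.34, close to the limit of the rule with a difference of 0.72. At 12 h they were 11.88, 11.94 and 12.07, at 24 h 11.94, 11.85, 11.94, 12.30 and 11.75, and at 72 h 11.84, 12.22, 12.05 and 12.22. The 4 h arrays therefore lay between those at 25 °C and all later ones without overlap. Differences at 12 h and 72 h were 1.40 and 1.52. The rise at 24 h was 1.39 ± 0.118 (2.63-fold, adjusted p = 2.15e-08).

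pirk, the inhibitor of Imd signalling, was represented by 3 member probes of one transcript. They did not behave alike. The brightest had levels of 10.78, 10.99 and 11.22 at 0 h and 10.56, 10.34 and 10.82 in the 12 h control at 25 °C. At 4 h they were 12.11, 12.02, 12.24, 12.40 and 12.28, at 12 h 11.97, 12.09 and 12.34, at 24 h 12.55, 12.30, 12.19, 12.19 and 12.34, and at 72 h 13.19, 12.59, 12.92 and 12.49. All arrays at 14 °C were more than 0.7 above the highest array at 25 °C. The differences were 1.42, 1.35, 1.53 and 2.01 at the successive times, and the rise at 24 h was 1.53 ± 0.139 (2.89-fold, adjusted p = 5.4e-08). The remaining pirk probes split into a pair of bands by slide. On slides 1 to 4 (slide numbers serve only as names) the first of them was at 6.95 to 7.20 at 25 °C, whereas the arrays of slides 5 to 7 were at 8.62 and 8.38. At 72 h, the levels on slides 1 to 4 were 7.68 and 8.02, and those on slides 5 to 7 were 10.68 and 10.10. Its difference at 24 h, 0.95 ± 0.531, missed the threshold (adjusted p = 0.309), as did that of the last probe with 1.12 ± 0.585 (adjusted p = 0.262). Within each slide set the difference of the first of them was 0.83 and 0.89 at 24 h and 0.78 and 1.89 at 72 h.

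**Figure D2:**
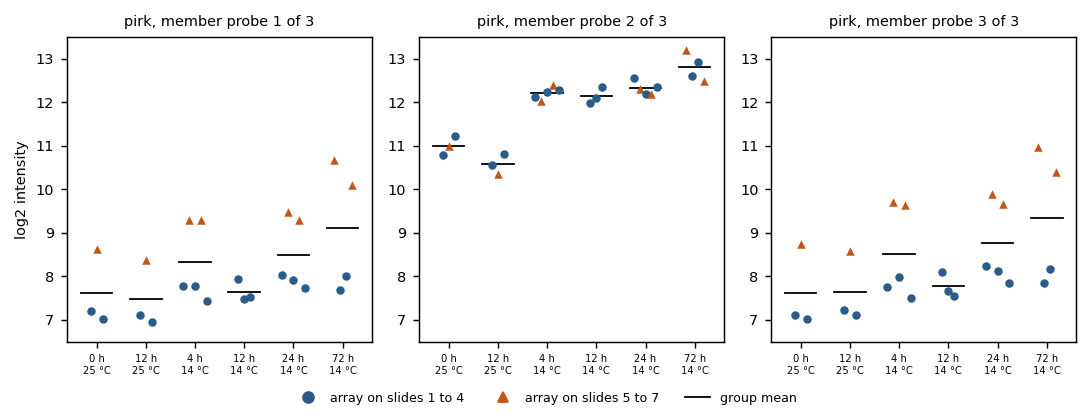
Levels of the 3 member probes of pirk (vertical axis, log2 intensity) on all 23 arrays in their 6 groups (horizontal axis); circles are arrays on slides 1 to 4, triangles arrays on slides 5 to 7, and lines are group means. In the left and right panel every triangle lies above the circles of its own group, from 8.38 at 25 °C in the left panel upwards, whereas both kinds of point mix in the middle one.

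This grouping of slides was not limited to pirk. After group means were subtracted, 64.8% of the remaining variance over all probes lay on 1 component. On it, the 8 arrays of slides 5 to 7 scored 20.7 or more, and the arrays of slides 1 to 4 scored -6.9 or less, except 1 array of the 12 h group with 17.5. Slides 5 to 7 held 2 of the 6 arrays at 25 °C, 2 of 5 at 4 h, 2 of 5 at 24 h, 2 of 4 at 72 h and none at 12 h. At 25 °C, 5 members (3.82%) differed by 0.7 or more between the slide sets, compared to 5.46% of all probes. The median size of this difference was larger in the members, however, with 0.27 against 0.11 over all probes. In the authors' values 0 members differed by 0.7 or more, compared to 0.146% of all probes, so that a count of 0 is not particular to the members. The component was noticed in the data and what separates the slide sets is not given in the sources used here. Because nearly all groups were spread over both sets, differences could be taken within each set. No slide held arrays of 25 °C together with arrays of 4 h or 24 h, and the 4 h and 24 h arrays shared their slides, so that single slides and these times cannot be told apart completely.

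At 24 h, the time not used to choose the members, 126 of the 131 were higher than at 25 °C (limma, adjusted p under 0.05) and 0 were lower. Over all probes, 7.6% were called higher and 7.97% lower. The 25 °C arrays of this comparison had been used by the rule. Every 24 h array was above every array at 25 °C for 115 members (87.8%), compared to 4.76% of all probes. Differences ranged from 0.16 to 4.42, and 15 members were at least 4-fold higher. With each of the 23 arrays left out in turn, 122 to 126 members were called, and with slide as a block 125 were called (5.05% of all probes called higher). As no slide held both 25 °C and 24 h arrays, the slide fit links them through the 12 h and 72 h arrays. The rule had used those arrays, so the 125 calls do not come from a time left out of the choice. With the slide set as a block, a fit chosen after the data had been seen, 129 were called (10.8% of all probes). When a fold of at least 2 was required in addition, 89 were called, compared to 1.64% of all probes in either direction.

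The 5 members not called at 24 h were both dim pirk probes and 3 probes without a gene name. For both pirk probes and 1 of the others, the 25 °C levels differed by 1.43 to 2.31 between the slide sets, and all 3 were called with the slide set as a block. The last pair of probes had differences of 0.16 and 0.53 (adjusted p = 0.751 and 0.269) and remained uncalled with that block (adjusted p = 0.705 and 0.147). These were also the members with the largest drop between 0 h and the 12 h control at 25 °C, by 0.84 and 1.27.

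Within slides 1 to 4, with 3 arrays at 24 h and 4 at 25 °C, the member differences at 24 h ranged from 0.23 to 4.40 with a median of 1.29. Within slides 5 to 7, with 2 arrays of each, they ranged from 0.08 to 4.57 with a median of 1.36. All 131 were above 0 in both sets. For 96 members the values of both sets were within 0.3 of each other, and for 11 they were more than 0.5 apart. Among the named genes, Kah had 2.51 and 2.40, Svil 1.31 and 1.74, and CG34453 1.65 and 1.15. At 4 h the median was 0.996 in the first set and 1.03 in the second, with all 131 above 0. The rule had required high 4 h values on these same arrays, so the direction at 4 h was largely fixed by the choice.

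**Figure D3:**
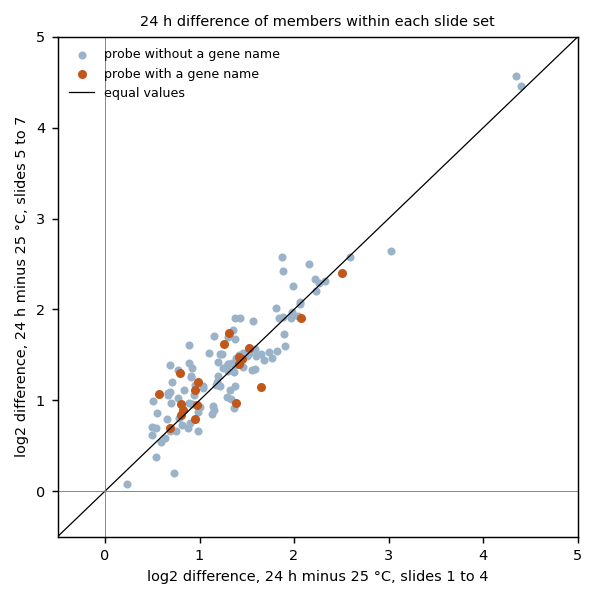
Difference between 24 h at 14 °C and 25 °C (log2 intensity) of the 131 member probes on slides 1 to 4 (horizontal axis, 3 against 4 arrays) and on slides 5 to 7 (vertical axis, 2 against 2 arrays); each point is a probe, orange points have a gene name, and the line marks equal values. All points lie above 0 on both axes, and 96 lie within 0.3 of the line.

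The remaining named genes were all called higher at 24 h. unc-5, the netrin receptor, had 25 °C levels of 7.36, 6.96 and 7.43 at 0 h and 7.19, 6.92 and 7.37 after 12 h more. At 4 h they were 8.34, 8.04, 8.32, 7.37 and 8.33, where the fourth array was within the range at 25 °C. At 24 h they were 8.63, 8.34, 8.88, 8.45 and 8.87, and at 72 h 8.09, 9.01, 8.97 and 8.48, all above 25 °C. The rise at 24 h was 1.43 ± 0.188 (2.69-fold, adjusted p = 8.15e-06).

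Both genes at the membrane and actin interface came up in steps. mim had levels from 6.51 to 6.92 on the 6 arrays at 25 °C, from 7.32 to 7.82 at 4 h and from 7.86 to 8.27 at 24 h. These groups did not overlap, whereas the 72 h arrays, from 7.47 to 8.27, overlapped with those at 4 h. Svil had levels of 8.50, 8.35 and 8.70 at 0 h and 8.64, 7.93 and 8.91 in the 12 h control, and 9.41, 9.15, 9.23, 9.18 and 9.23 at 4 h. The difference at 4 h, 0.73, was close to the limit. By 12 h, the levels were 9.78, 10.30 and 10.47, which was above all 4 h arrays. The rises at 24 h were 1.43 ± 0.131 for mim (2.69-fold, adjusted p = 6.05e-08) and 1.45 ± 0.169 for Svil (2.73-fold, adjusted p = 1.71e-06). Between 12 h and 24 h, Svil differed by -0.23 ± 0.204, which missed the threshold (adjusted p = 0.73).

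spin, the lysosomal transporter, was higher on slides 5 to 7 in each group that held both slide sets. At 25 °C it was at 10.23, 9.89, 9.92 and 9.61 on slides 1 to 4 and at 10.72 and 10.26 on slides 5 to 7. At 4 h the levels were 10.82, 11.09 and 10.74 on the first and 11.57 and 11.47 on the second set. Over all arrays, the 24 h levels from 10.77 to 11.36 were above those at 25 °C, whereas 2 of the 72 h arrays, at 10.52 and 10.65, were not. The rise at 24 h was 0.92 ± 0.212 (1.90-fold, adjusted p = 0.00339). With 0 h alone as reference it was 0.75 (adjusted p = 0.062), and within the slide sets it was 0.95 and 0.79.

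The 5 genes known by a number only also moved up. CG33642 had levels from 7.14 to 7.62 at 25 °C, from 8.21 to 8.74 at 4 h, and from 9.00 to 9.66 at 24 h, without overlap between these groups. It rose 3.95-fold by 24 h (1.98 ± 0.144, adjusted p = 2.6e-09), the largest value after Kah among the named genes. CG34453, which was at 6.39 to 6.65 at 25 °C and thus near the lower end of the scale, had levels from 7.64 to 8.17 at 4 h and from 7.20 to 8.04 at 72 h, and rose by 1.45 ± 0.135 at 24 h (adjusted p = 7.6e-08). CG8646 was near its later levels at 4 h already: its levels were 6.89 to 7.41 at 25 °C, 8.21 to 8.80 at 4 h and 8.25 to 8.53 at 72 h. For CG8646 the rise at 24 h was 1.40 ± 0.103 (2.63-fold, adjusted p = 3.41e-09). CG40958 had levels from 7.36 to 8.13 at 25 °C and from 8.10 to 9.29 at 24 h, so that these groups overlapped. The smaller rises were those of CG40958 with 0.96 ± 0.191 (adjusted p = 0.000876) and CG33920 with 0.66 ± 0.166 (adjusted p = 0.00689). CG40958 was not called with slide as a block (0.90, adjusted p = 0.0635). CG33920 had a higher mean difference at 4 h (0.95), 12 h (1.17) and 72 h (0.95) than at 24 h, where the lowest array, at 7.23, was only just above the highest at 25 °C, at 7.21.

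**Figure D4:**
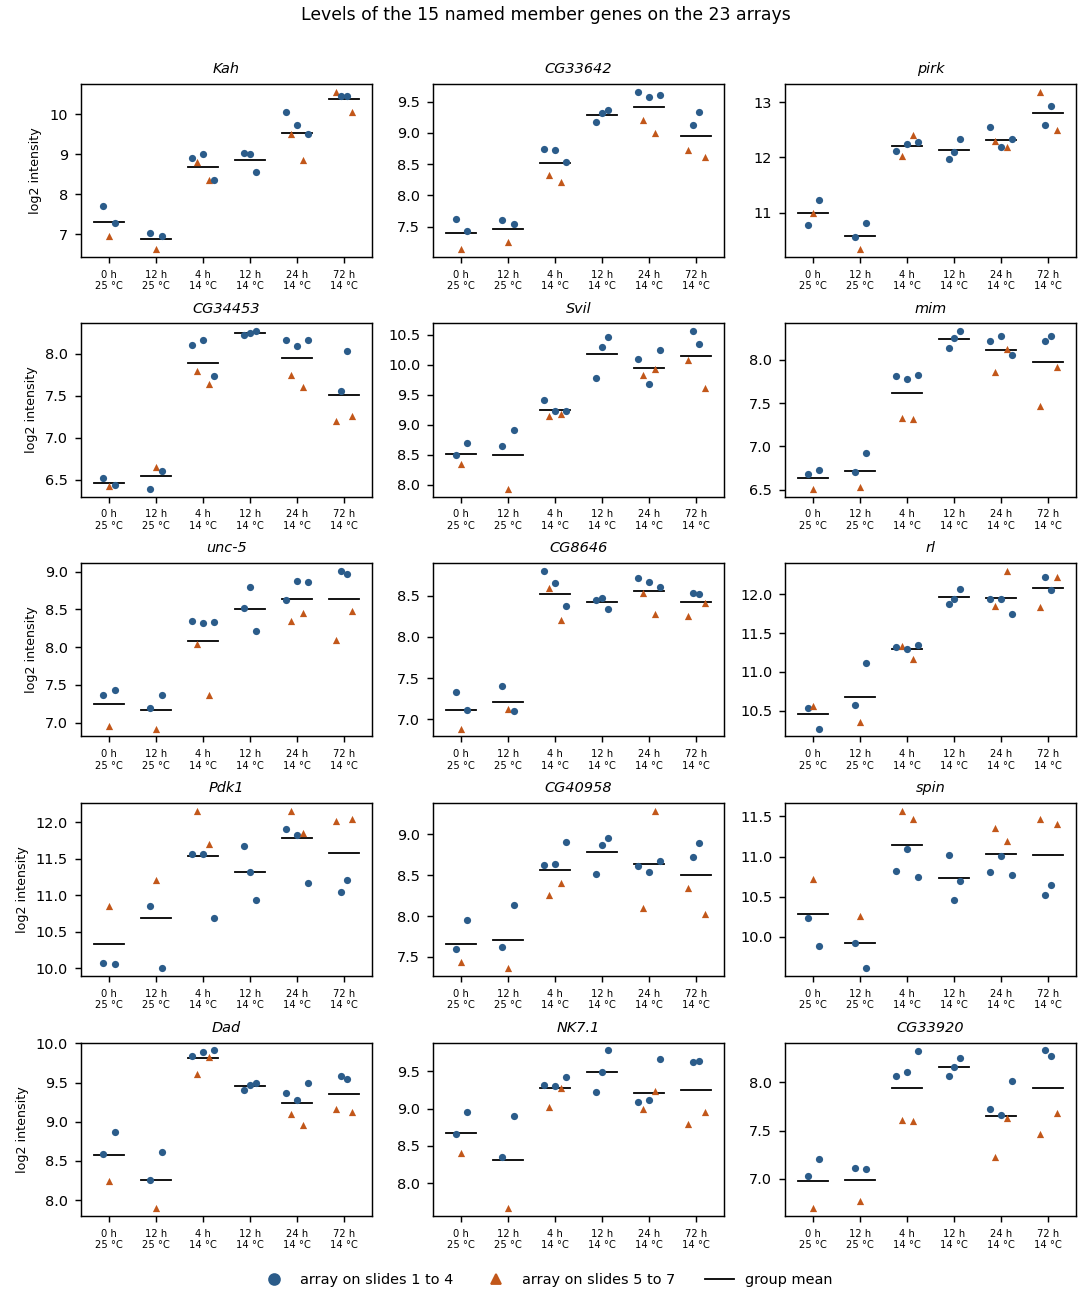
Levels of the 15 named genes (1 member probe each, vertical axes, log2 intensity, each panel with its own range) on all 23 arrays in their 6 groups (horizontal axes); circles are arrays on slides 1 to 4, triangles arrays on slides 5 to 7, and lines are group means. Genes are ordered by their difference at 24 h, from Kah with 2.44 to CG33920 with 0.66, and Dad is the one whose 4 h arrays, 9.61 to 9.91, lie above all others.

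Between 12 h and 24 h, the members differed little in the median. The median member differed by -0.07 between these times, with a range from -0.71 to 1.00, and 0 of 131 members were called in either direction (limma, adjusted p under 0.05). Over all probes 0.0964% were called higher and 0.196% lower. At an unadjusted p under 0.05 there were 15 members called in either direction (11.5%), compared to 8.85% of all probes. With the slide set as a block, 3 members, all without a gene name, were called higher at 24 h (0.373% of all probes), by 0.39 to 0.54. Within slides 1 to 4, which held 3 arrays of each group, the median difference was -0.003, and 65 of the 131 were above 0 (49.2% of all probes). However, 1 of these 12 h arrays scored 17.5 on the component described above, unlike the other arrays of slides 1 to 4. The fit with the slide set as a block also counted it with slides 1 to 4. With the authors' values, from which surrogate variables had been removed, 19 members were called. Of these, 8 were higher at 24 h (5.99% of all probes) and 11 were lower (4.59% of all probes). The number of arrays limits this comparison, as the 12 h group had 3 arrays, of which 2 had failed a quality limit in the scanner output.

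The rule did not use the difference between both 25 °C groups directly. However, every 72 h array had to exceed each single 25 °C array, which removed 5 probes and limits how far these arrays can spread in a member. This comparison asks whether the members also move with 12 h more of growth and the higher cell density at constant temperature. The median member was 0.03 lower in the 12 h control than at 0 h, and 51 of 131 members were above 0. None was called (limma, adjusted p under 0.05), nor was any other probe (0% higher and 0% lower). At an unadjusted p under 0.05, 11 members were lower (2.18% of all probes) and 0 were higher (1.87% of all probes). The values ranged from -1.27 to 0.41. Within slide 1 and slide 3, each of which held 1 array of both groups, the medians were -0.055 and -0.047. The lowest values of named probes were those of Kah (-0.44 ± 0.251), the brightest pirk probe (-0.43 ± 0.165), Pdk1 (-0.45 ± 0.223 for its brightest probe) and Dad (-0.42 ± 0.179 for its second probe). These were the lowest probes of their genes. The other member probes of Pdk1 were at 0.36 ± 0.372 and -0.06 ± 0.081, and those of pirk at -0.13 and 0.02. With the slide set as a block, 1 member, a probe without a gene name, was called lower (0.0187% of all probes), by 1.27.

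Other probes of the same genes and transcripts give a view on how far the pattern held along a gene. There were 48 such probes that were not members. At 24 h, 27 of them were called higher and 0 lower, compared to 7.6% and 7.97% of all probes. Of the 28 that were well above background on all 23 arrays, 19 were called higher. These probes had been left outside by their 4 h or 72 h values, so that their lower values at those times were fixed by the rule. With slide as a block, 19 of the 48 were called higher at 24 h and 0 lower, compared to 5.05% and 5.16% of all probes. For named genes there were 8, all called higher at 24 h, of which 6 were called with that block as well. The other probe of Svil had a difference of 0.47 at 4 h but matched the member at 24 h (1.45) and 72 h (1.67). Likewise, the other probe of mim, which carries the identifier of another transcript, was at 0.18 at 4 h and at 1.04 at 24 h, and both other probes of unc-5 were at 0.19 and 0.38 at 4 h and at 1.22 and 1.43 at 24 h. For rl the values were 0.46 and 1.00. Hence, for mim, unc-5, rl and Svil, it depended on the probe whether the gene looked early. The other Kah probe, at 6.10 at 25 °C near the floor of the array, gave 0.32 at 4 h, 0.58 at 24 h and 0.76 at 72 h, and with slide as a block its 24 h value was 0.20 and not called (adjusted p = 0.476). The other Pdk1 probe, of a further transcript, gave 0.58, 0.52 and 0.52, and was not called at 24 h with that block either (0.19, adjusted p = 0.483).

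**Figure D5:**
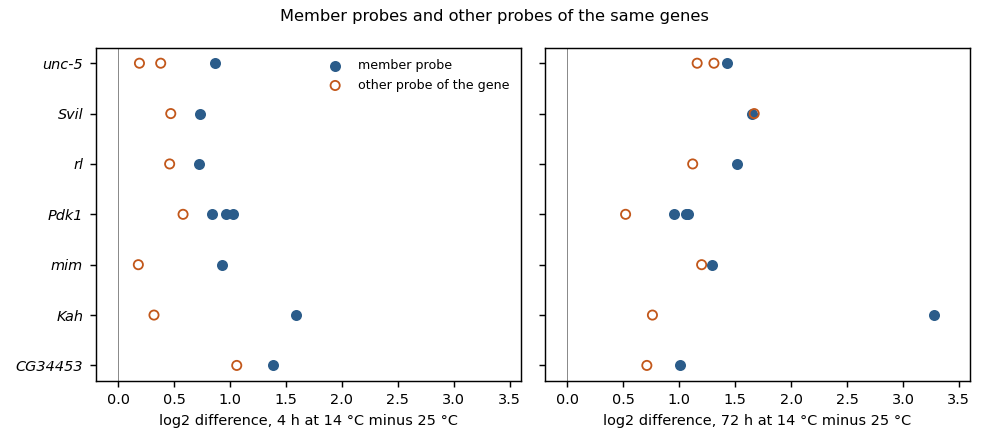
Difference from 25 °C (horizontal axes, log2 intensity) at 4 h (left) and 72 h (right) for the member probes (filled) and the other probes (open) of the 7 named genes that have both. At 4 h, open points of mim and unc-5 lie between 0.18 and 0.38, whereas at 72 h they lie between 1.16 and 1.31.

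Pdk1 was the only member on the gene lists compiled for pathways. The list of insulin and FOXO signalling had 40 probes of 16 genes with a name, including the 3 member probes of Pdk1. At 4 h, 8 of the 40 were called higher and 1 lower, compared to 3.21% and 2.84% of all probes. The 8 include the 3 member probes of Pdk1, as does the count of higher probes at 72 h. These probes had been chosen for high values at 4 h and 72 h, so their calls at both times were largely fixed by the choice. At 24 h the counts of the list were 18 and 1, compared to 7.6% and 7.97% of all probes. The 18 were all probes of Ilp6, ImpL2, InR, Pdk1 and S6k, and they include the 3 member probes of Pdk1. Each of these genes gave more than 1 of the 18 probes. Such probes were not independent, so the count does not describe the 16 genes of the list. At 72 h they were 14 and 1, compared to 7.97% and 9.25% of all probes. The lists were made with results of these data known. Apart from Pdk1, the probes called higher at 4 h were 2 of InR, the insulin receptor, with 0.33 and 0.41, and 1 each of S6k, a kinase of the TOR branch (0.56), and Ilp6, an insulin-like peptide (0.16). Another Ilp6 probe was lower by 0.57. With slide as a block, 1 InR probe was still called at 4 h (0.54, adjusted p = 0.00759), whereas the other InR probe (0.07, adjusted p = 0.948), S6k (0.57, adjusted p = 0.383) and both Ilp6 probes (0.17 and -0.49, adjusted p = 0.533 and 0.0817) were not. The counts of the list with this block were 3 higher and 0 lower at 4 h (1.84% and 1.14% of all probes). They were 11 and 0 at 24 h (5.05% and 5.16%), and 18 and 1 at 72 h (11.6% and 12.8%). Member probes of Pdk1 are again among the higher ones at 4 h and 72 h. The member probes of Pdk1 were at 0.84 to 1.03 at 4 h. At 72 h, Thor, the translation inhibitor 4E-BP, which is a known FOXO target, was higher by 1.73 ± 0.178 (adjusted p = 2.81e-07) but differed by 0.30 ± 0.167 at 24 h (adjusted p = 0.297). ImpL2, a secreted binding protein of insulin-like peptides, had 2 probes with rises of 0.71 and 0.84 at 24 h. When arrays were scaled to the same median in place of quantile normalization, the counts of this list were 3 higher and 1 lower at 4 h, 6 and 0 at 24 h, and 7 and 5 at 72 h.

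Over all 16 lists, 171 probes of 82 genes had a name. At 4 h 15 were called higher and 5 lower (3.21% and 2.84% of all probes). At 24 h it was 41 and 17 (7.6% and 7.97%), and at 72 h 32 and 21 (7.97% and 9.25%). The higher calls at 4 h and 72 h include the 3 member probes of Pdk1, which had been chosen by their values at these times. With median scaling, the counts over the lists were 5 and 6, 16 and 21, and 15 and 40. Over all probes they were 515 and 1180, 987 and 3601, and 1111 and 5952, so that the balance of directions depended on the scaling. With slide as a block, 7 were called higher and 5 lower at 4 h (1.84% and 1.14% of all probes). At 24 h, 20 were higher and 8 lower with this block (5.05% and 5.16% of all probes). At 24 h, median scaling left 111 members called higher and 0 lower, beside 987 of all probes called higher and 3601 lower. The ETS list had 7 probes, which belonged to pnt, Ets97D and Pvf3. Of these, 1 was called higher at 4 h and 2 at 24 h, all of Pvf3, a growth factor gene. With slide as a block, 0 were called at 4 h or 24 h: the Pvf3 probe called at both times went from 0.74 to 0.08 at 4 h (adjusted p = 0.974) and from 1.44 to 0.78 at 24 h (adjusted p = 0.0614), and the other from 0.85 to 0.26 at 24 h (adjusted p = 0.515). With the slide set as a block, however, 3 were called higher at 4 h and 4 at 24 h (5.32% and 10.8% of all probes). At 72 h, 3 were called higher in the main fit and 3 with slide as a block (7.97% and 11.6% of all probes). On the JNK list, puc, the phosphatase that limits JNK signalling, had a probe with 0.52, 0.54 and 0.56 at 4, 24 and 72 h (adjusted p = 0.00203, 0.000464 and 0.000559), whereas its second probe, at 0.40 at 24 h, was not called (adjusted p = 0.67). With slide as a block, the first probe of puc was at 0.59 at 4 h and no longer called (adjusted p = 0.105). It was still called at 24 h (0.61, adjusted p = 0.038) and 72 h (0.60, adjusted p = 0.000286). The second probe was called with this block at 72 h (0.62, adjusted p = 0.000157), but not at 4 h or 24 h (0.56 at both, adjusted p = 0.12 and 0.051). With median scaling, 0 probes of the JNK list were called at 4 h. On the lysosome list, which does not hold spin, 0 of 14 probes were called higher at 4 h or 24 h (3.21% and 7.6% of all probes). At 24 h, 2 were lower (7.97% of all probes), Atg18a with -0.26 and a Mitf probe with -0.44. With slide as a block, neither was called (-0.13, adjusted p = 0.762, and -0.23, adjusted p = 0.489).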

How the data were processed

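Total RNA of 23 S2R+ cultures was labelled with Cy3 and hybridised to one-colour Agilent arrays (45019 spots, 32162 gene probes), quantified with Feature Extraction 10.7.3.1. The deposited scanner intensities were used for levels and tests. The deposited log2 values, which per the methods the authors had corrected with normexp, quantile-normalized and adjusted with surrogate variable analysis, were used to choose the members and as an alternative. The members and gene lists were chosen with earlier results of these data known. Median spot signals were background-corrected (limma 3.58.1 in R 4.3.3, normexp, offset 50, with 23 local backgrounds over 3 times the array median set to that median), quantile-normalized and summarised as the median per probe. Group means were compared with limma over all probes, with both 25 °C groups pooled, and p-values were adjusted by the Benjamini-Hochberg method. The threshold was an adjusted p of 0.05. The fits were tested on simulated data with noise drawn independently for each probe and array. The simulation held no slide effect, so it cannot show how the fits behave with the slide sets. Probes well above background numbered 15060 to 18697 per array. The arrays of a group were biological replicates per the methods, and p-values measure the spread between these samples only. The number of arrays limits the precision, and 6 were outside the quality range of the software. These were 3 of the 4 arrays at 72 h, 2 of the 3 at 12 h and 1 of the 5 at 4 h. Scan dates and slides were treated as batches. Every named member was reported, with full values for the probe with the largest 24 h difference of its gene, and unnamed ones by counts and at most 2 identifiers. Gene names came from tables of the study and RefSeq. Alternatives are listed under the dependence on processing.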

Additional observations from a re-analysis of the deposited data

Results flagged for a closer look

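Among the 15 named genes, each group of 4 to 6 arrays was searched for a single array that stood apart from the others. Of 60 groups, 2 had one (3.33%), and chance would give about 1 in 20. For rl, the third array of the 12 h control at 25 °C, at 11.11, was the highest of the 6 arrays at 25 °C, with the next at 10.57, and the gap made up 0.641 of the range. For Dad, the second 4 h array, at 9.61, was the lowest of its group, with the next at 9.83, and the gap made up 0.742 of the range.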

How the results depend on the processing

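The count of 126 members called higher at 24 h lay between 89 and 129 under the alternatives run. For each of the 15 named genes, only the member probe with the largest 24 h difference was followed through them. None of these probes changed its sign at 24 h, and 12 of 15 kept their call throughout. The dim pirk probes, which were not called in the main fit, are not part of this count. The exceptions at 24 h were CG40958 with slide as a block, spin with median scaling (0.62, adjusted p = 0.0751) and with 0 h alone, and NK7.1 with median scaling (0.48, adjusted p = 0.213), with 0 h alone (0.54, adjusted p = 0.179) and without 24h replicate 5. The median difference at 24 h, 1.30, was 1.07 with uncapped background, 1.46 with offset 0, 1.06 with median scaling and 1.52 with the 75th percentile of processed signals, where the median of all probes was itself shifted by 0.296. Leaving out single arrays gave 1.26 to 1.32. The cause of these shifts was not tested. For the 24 h against 12 h comparison, 0 calls became 19 with the authors' values, 2 with the replicate block, and 3 with array weights and with the slide set as a block. For the 25 °C groups, 0 became 3 with the authors' values and 1 with the slide set as a block (0 to 1 with single arrays left out). Of the probes on the gene lists, 20 were called at 4 h. This count was 42 with the authors' values, 39 with the slide set as a block, 11 with median scaling, 12 with slide as a block, 13 with only the groups compared, 10 with 0 h alone, 13 with the 12 h control alone, 6 with a fold of 2, and 13 to 20 with single arrays left out, 13 without 4h replicate 1. The 58 called at 24 h became 37 with median scaling, 28 with slide as a block and 11 with a fold of 2. The 53 called at 72 h became 85 with the authors' values, 32 without arrays outside the quality range and 19 with a fold of 2. Array pairs with the same replicate number had deviations that correlated from -0.828 to 0.842 (median 0.468), and pairs with different numbers from -0.821 to 0.84 (median -0.204). Arrays of 4 h and 24 h with the same number also shared slides, and over pairs on different slides the medians were 0.337 and -0.276. As some same-numbered pairs correlated below 0 and the labels give no shared origin, the number was not taken as a pairing, which the medians leave uncertain. The replicate block left 126 members called at 24 h and moved the count of 0 at 24 h against 12 h to 2. With 3 to 5 arrays per time, small differences between times could not be resolved.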
